A study of Homo sapiens with 2 samples.

Results

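The signal of 5 genes of DNA mismatch repair was compared between a culture of NUGC4 cells with an ANO5 (anoctamin 5) siRNA and a culture with a negative control siRNA. The set held 2 homologs of the bacterial MutS protein (MSH3 and MSH6) and 3 homologs of MutL (MLH3, PMS1 and PMS2). They were taken by gene symbol from the platform's annotation, by a rule that uses no measured value although it was set with earlier results of these data known, and make up 5 of the 14526 named genes in the table. NUGC4 is a human gastric cancer cell line. Each culture was transfected with 20 nmol/l of siRNA 24 h after seeding, and its total RNA was run on 1 expression array. A single siRNA sequence against ANO5 was used, so that loss of ANO5 and other effects of that siRNA cannot be told apart. With 1 array per group there is no spread between replicates, and no standard error or p-value is given. Differences are given on the deposited log2 scale, with positive values where the signal was higher after the ANO5 siRNA.

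Mismatch repair removes bases that DNA polymerases have put in wrongly during replication, and the small loops that form when the strands slip at repeats. MutS homologs work in pairs that find the error. The pair that holds MSH6 reads single mismatches and very short loops, and the pair that holds MSH3 reads longer loops. MutL homologs then join. PMS2 is the subunit with endonuclease activity in the main human MutL pair, MLH3 is an endonuclease subunit best known from crossing over in meiosis, and the part of PMS1 in repair is less clear. An exonuclease, EXO1, removes the stretch that holds the error, and the replication machinery fills and seals the gap. Loss of this repair causes the microsatellite instability seen in a subset of gastric cancers.

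MSH6 was the only gene of the 5 whose signal differed by 1.5-fold or more, a count of 1 of 5 beside 20.1% of all measured genes lower and 23.2% higher by that size. Its signal was lower after the ANO5 siRNA, whereas its paralog MSH3 was slightly higher and the 3 MutL homologs lay within 1.5-fold. Most genes of the later steps, excision and resynthesis, were lower too. Of 15 measured, 12 were lower by 1.5-fold or more and 9 by 2-fold or more, beside 20.1% and 11.3% of all measured genes.

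To show what the members have at their starts, promoter sequences were read from RefSeq (GRCh38.p14, 250 bases before to 50 after the first listed start), and all 5 members had one. Each was searched on both strands for the letters of E2F sites (TTTCCCGC, TTTGGCGC, TTTCGCGC or TTTGCCGC), of the CCAAT box (CCAAT), of the GC box (GGGCGG) and of the cAMP response element (TGACGTCA). E2F factors switch on genes of the G1/S transition. The E2F letters stood in the promoters of MSH3, MSH6 and PMS2 and not in those of MLH3 and PMS1. MSH6 has 4 listed starts and PMS2 has 2, and only the first of each was searched. Of 27305 promoters of this length 3.33% held them, and 4.85% of the 11791 promoters of genes in the array table. A match of letters is a description and does not show that a factor binds. The MSH6 sequence is shown because it is the member that differed, in a 30-base window across the start (chr2:47783137-47783166, plus strand) with the E2F letters in capitals, from base 4 to base 11 of the transcript.

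MSH6 window: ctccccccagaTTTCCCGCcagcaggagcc

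The 250 bases before the MSH3 start (chr5:80654402-80654651, plus strand) are shown because MSH3 holds E2F letters and did not share the lower signal of MSH6. The capitals mark 2 overlapping matches, TTTGGCGC on the plus strand from base -107 to -100 and TTTCGCGC on the minus strand from -103 to -96.

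MSH3 upstream: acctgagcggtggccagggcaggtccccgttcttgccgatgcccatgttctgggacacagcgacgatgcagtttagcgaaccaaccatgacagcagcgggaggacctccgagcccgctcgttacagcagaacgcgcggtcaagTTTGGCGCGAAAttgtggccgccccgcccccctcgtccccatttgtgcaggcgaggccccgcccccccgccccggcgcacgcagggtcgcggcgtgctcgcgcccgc

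MSH6 upstream: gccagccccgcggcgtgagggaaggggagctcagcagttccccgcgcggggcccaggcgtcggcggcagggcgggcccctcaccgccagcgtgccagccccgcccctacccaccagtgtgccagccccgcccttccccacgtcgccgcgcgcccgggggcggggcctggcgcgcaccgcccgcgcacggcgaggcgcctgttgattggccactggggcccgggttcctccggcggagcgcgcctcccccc

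The MSH6 line above covers the same 250 bases before its own start (chr2:47782895-47783144, plus strand), in which no E2F letters were found. Both stretches are rich in G and C, with 71% of the searched bases in MSH3 and 78% in MSH6. The MSH3 promoter held 4 GC boxes and no CCAAT box, and that of MSH6 held 5 GC boxes and a CCAAT box on the minus strand from base -47 to -43. In PMS2 the E2F letters lie from base -43 to -36 and overlap a GC box, in a 30-base window (chr7:6009131-6009160, minus strand).

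PMS2 window: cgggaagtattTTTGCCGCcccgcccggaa

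The PMS2 promoter also held 3 CCAAT boxes and a cAMP response element, from base -104 to -97. MLH3 stood apart: its promoter held none of the 4 motifs and had 51% G and C. Of the 3 members that hold the E2F letters, MSH6 was lower and MSH3 and PMS2 were within 1.5-fold.

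**Figure D1:**
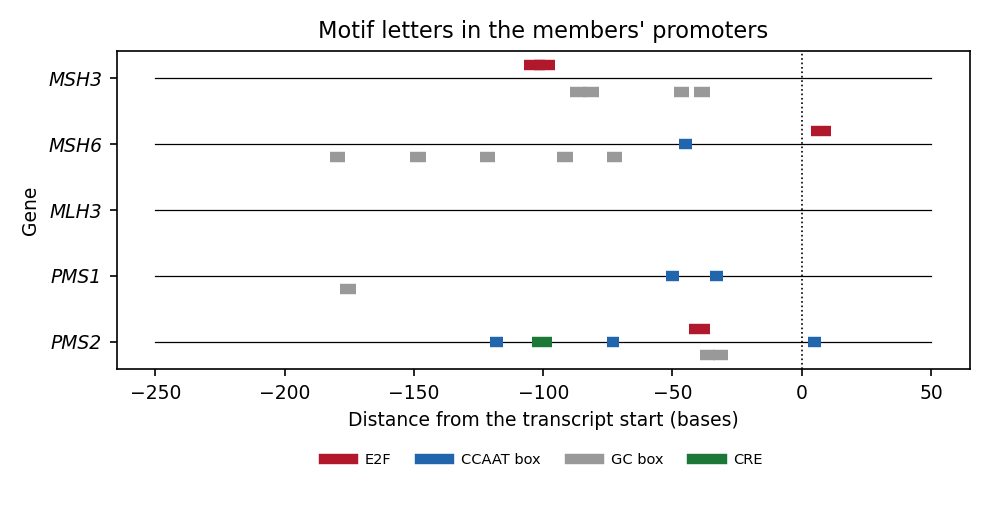
Positions of motif letters (coloured bars) in the promoter of each member, against the distance in bases from the first listed RefSeq start (dotted line). MSH3, MSH6 and PMS2 hold E2F letters, and MLH3 holds none of the 4 motifs.

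ANO5 itself, the target, had a log2 signal of 6.83 on the control array and 3.67 on the ANO5 siRNA array, a difference of -3.16. Its mean lay below the measured range defined next, and the ANO5 siRNA value was at or above only 4.68% of clusters, so background may limit this difference. The table held 17345 transcript clusters, and 9735 of the named genes reached a mean of 6.05 on the log2 scale, the 33rd percentile, and are called measured here. All 5 members were in this range. The measured range held 8 of 11 epithelial and gastric markers, among them EPCAM and the keratins KRT8, KRT18 and KRT19, whereas the gastric markers CLDN18, TFF1 and TFF3 lay below the range on average. Of 7 markers of blood, vessel, connective tissue and muscle 5 lay below it, and CD79A and VWF lay inside it with differences of 0.14 and 0.52.

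MSH6 had a log2 signal of 11.06 on the control array and 9.49 on the ANO5 siRNA array. The difference was -1.57, or 2.97-fold lower. Only 5.55% of all measured genes had an equal or lower difference. Both values lay well inside the range of the arrays, at or above 80.6% and 66.4% of the clusters, so that the difference does not rest on a value near the lower end of the scale.

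MSH3, which takes the place of MSH6 in the other MutS pair, had a signal of 9.44 in the control and 9.71 after the ANO5 siRNA. This difference of 0.27 is 1.21-fold higher. The ratio of MSH3 to MSH6 signal was thus 3.58-fold higher on the ANO5 siRNA array than on the control array. A change of ratio is free of any offset common to both genes, but each gene was read by 1 cluster, and the ratio has no replicate check.

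Among the MutL homologs PMS2 had signals of 10.75 in the control and 11.18 after the ANO5 siRNA, a difference of 0.43 (1.35-fold higher). PMS2 has several near-identical pseudogene copies, so that its signal may be shared with a copy, which was not tested. The PMS2 cluster lists a non-coding transcript beside the coding one, both under the symbol PMS2. The pseudogene PMS2P3 has a cluster of its own, with 10.49 in the control and 10.03 after the ANO5 siRNA, the opposite direction to PMS2. PMS1 had 8.38 and 8.07, a difference of -0.31 (1.24-fold lower). MLH3 had 8.05 and 8.04, a difference of -0.01. None of the 3 reached 1.5-fold in either direction.

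**Figure D2:**
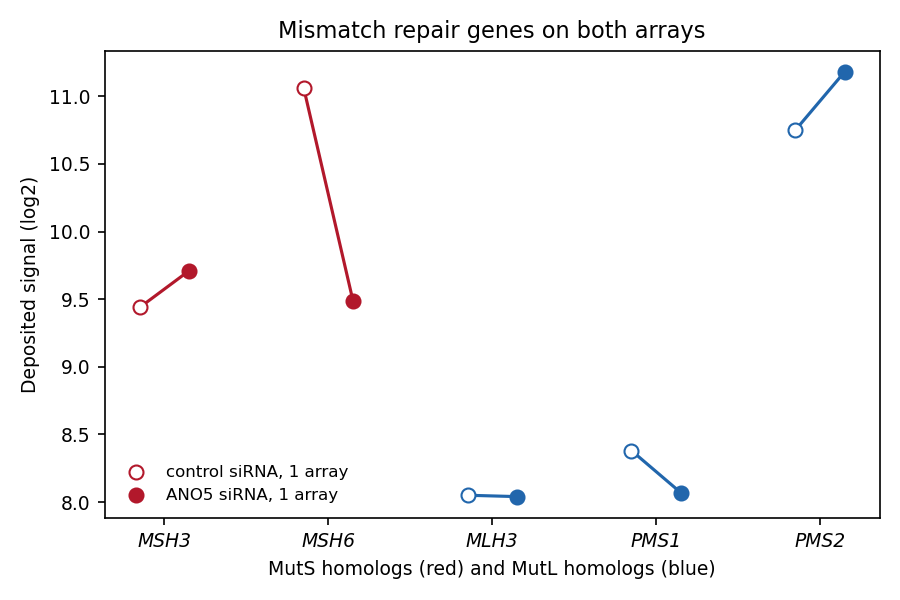
Deposited log2 signal of each member (vertical axis) on the control siRNA array (open points) and the ANO5 siRNA array (filled points), 1 array each, with MutS homologs in red and MutL homologs in blue. The line of MSH6 drops from 11.06 to 9.49, and the other 4 lines are close to level; heights of different genes come from different probes and are not comparable.

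By class, the median difference was -0.65 for the 2 MutS homologs and -0.01 for the 3 MutL homologs, so that MutS minus MutL was -0.64. The MutS median stands between 2 unlike values, -1.57 and 0.27, and describes neither gene. The MutL homologs spanned -0.31 to 0.43. The gap inside the MutS class, 1.84 between MSH3 and MSH6, was larger than any gap among the MutL homologs, where the widest was 0.74 between PMS1 and PMS2.

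Counted together, 1 of 5 members was lower by 1.5-fold or more, or 2-fold or more, and 0 were higher. Of all measured genes 20.1% were lower and 23.2% higher by 1.5-fold or more, and 11.3% were lower and 11.2% higher by 2-fold or more. A count of 1 in 5 is close to the first of these shares, so the set as a whole is not marked off from the array. Its median of -0.01 stood beside 0.07 over all measured genes.

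**Figure D3:**
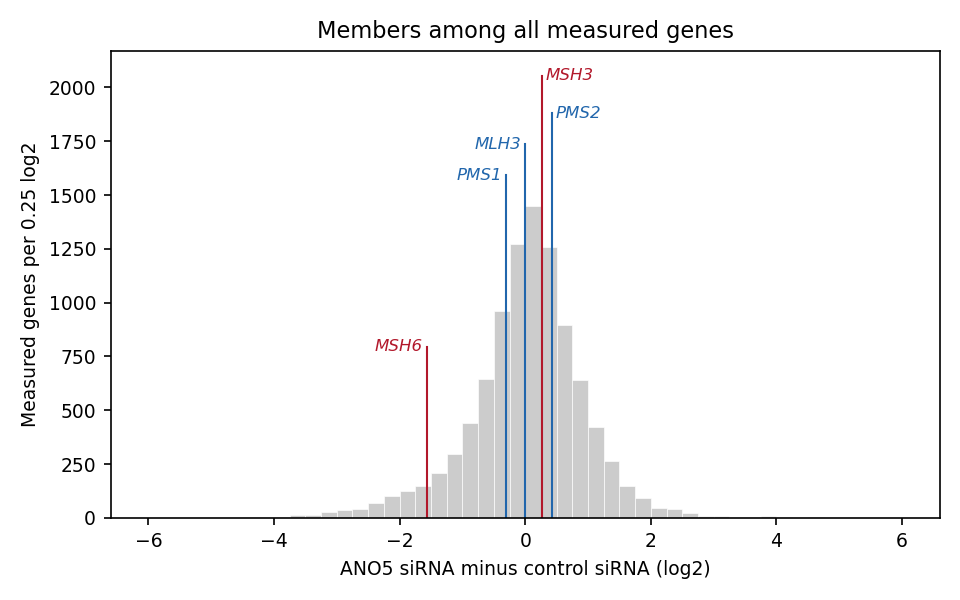
Number of measured genes (grey bars, bins of 0.25) by log2 difference between the ANO5 siRNA and control siRNA arrays, with the 5 members as vertical lines whose heights carry no value. MSH6 lies in the lower tail at -1.57, and the other 4 lie between -0.31 and 0.43 near the peak.

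The genes of most like values were sought for each member, by Euclidean distance over the 2 arrays on the log2 scale. Such likeness rests on 2 points and, in part, on the level of the probes. MSH6 had few close neighbours, the nearest being CIP2A, an inhibitor of the phosphatase PP2A (difference -1.60, distance 0.094), and the transcription factor FOXP1 (-1.68, distance 0.12). Only 1 measured gene lay within 0.1 of MSH6, against 32 for MSH3, 26 for MLH3, 22 for PMS1 and 18 for PMS2. These counts follow from the level and difference of each member and are not a separate trait. The nearest genes were SETD5 and B3GLCT for MSH3, GTF2H4 and JRK for MLH3, CETN3 and RAB27A for PMS1, and PTPN12 and MAP3K2 for PMS2.

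Both PMS1 and PMS2 have a gene on the other strand that starts within 1000 bases of their own start, and the other 3 members have none in the RefSeq promoter table. PMS1 lies head to head with ORMDL1, a regulator of sphingolipid synthesis, with 111 bases from start to start. The 110 bases between these starts (chr2:189784340-189784449, plus strand) are shown because both genes would be read out of this stretch, with a CCAAT box on each strand in capitals.

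PMS1 to ORMDL1: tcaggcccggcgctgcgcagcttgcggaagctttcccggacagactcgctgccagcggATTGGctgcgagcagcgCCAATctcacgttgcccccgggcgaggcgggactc

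ORMDL1 had a log2 signal of 9.11 in the control and 10.56 after the ANO5 siRNA, 2.73-fold higher, while PMS1 was 1.24-fold lower. The genes on either side of this stretch thus differed in opposite directions, with PMS1 inside 1.5-fold. AIMP2, which starts 166 bases from PMS2, was not analysed here.

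Excision and resynthesis genes were lower as a group. Of 16 listed genes all were in the table and 15 were measured. Of these, 12 were lower by 1.5-fold or more, 1 was higher and 2 lay between, beside 20.1% of all measured genes lower and 23.2% higher. The median was -2.11 (4.32-fold lower) beside 0.07 over all measured genes. These genes also serve DNA replication, and the list was chosen with results of these arrays known, so its count is a description.

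EXO1, the exonuclease that acts with MutS and MutL proteins, had a log2 signal of 9.72 in the control and 7.29 after the ANO5 siRNA, 5.39-fold lower. The 5 subunits of the clamp loader RFC, which places the sliding clamp PCNA on DNA, were the most alike, with differences from -2.56 (RFC3) to -2.14 (RFC2). PCNA, which directs the MutL endonuclease to the new strand, went from 13.64 to 12.79, 1.8-fold lower. The clamp was thus lower by less than any subunit of its loader.

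RPA covers the single-stranded gap. Its subunit RPA1 was 4.29-fold lower, RPA3 1.97-fold and RPA2 1.71-fold. DNA polymerase delta, which fills the gap, was mixed: POLD3 was 4.32-fold lower, POLD4 2.11-fold higher, and POLD2 differed by -0.35. POLD1, the catalytic subunit, had signals of 4.67 and 4.23, below the measured range, a difference of -0.44 between low values. LIG1, the ligase that seals the strand, went from 7.68 to 5.33, 5.1-fold lower, and its lower value was at or above only 28.7% of clusters. HMGB1, a chromatin protein that aids the early steps, had 15.06 and 14.73 (difference -0.33).

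MSH6 at -1.57 thus lay between PCNA at -0.85 and the RFC subunits. The other 4 members lay above 14 of the 15 measured excision and resynthesis genes, with POLD2 (-0.35) and HMGB1 (-0.33) just below PMS1 (-0.31), and below POLD4.

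**Figure D4:**
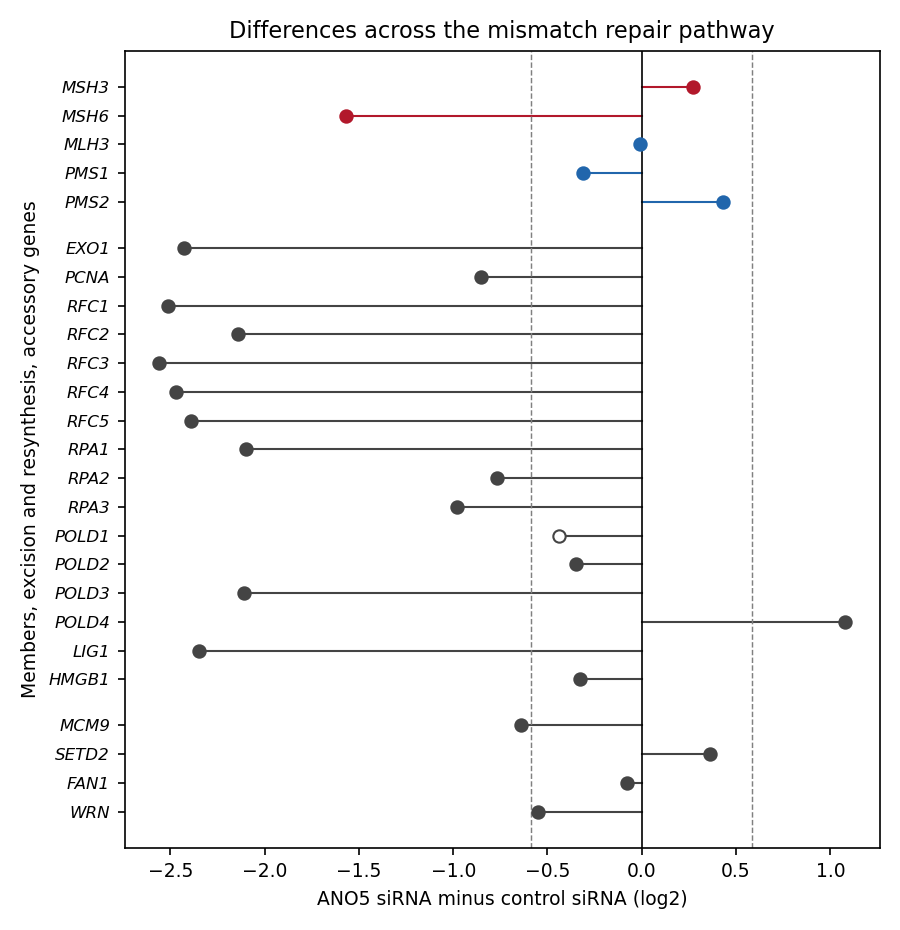
Log2 difference between the ANO5 siRNA and control siRNA arrays for the members (MutS red, MutL blue) and the other genes of the pathway (grey), with 1.5-fold marked by dashed lines and the open point for POLD1, which lies below the measured range. MSH6 stands on the lower side with EXO1, the RFC and RPA subunits and LIG1, and the other 4 members lie inside the dashed lines.

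Accessory genes differed little. MCM9, a helicase that works with mismatch repair proteins, was 1.56-fold lower, from 8.92 to 8.28. SETD2, the methyltransferase whose H3K36 trimethyl mark is bound by MSH6, had 9.10 and 9.46, a difference of 0.36. FAN1, a nuclease that binds MutL proteins, differed by -0.08, and WRN, a helicase needed by cells with microsatellite instability, by -0.55. Thus 1 of 4 was lower by 1.5-fold, near the 20.1% of all measured genes. The germ-line MutS homologs MSH4 and MSH5 were not analysed here.

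Other repair pathways give the scale for these values, beside 20.1% of all measured genes lower and 23.2% higher by 1.5-fold or more. Recombination and Fanconi anaemia genes were lower in 11 of 14 measured members and higher in 0, with a median of -1.69; XRCC2, which acts in recombination, was 14.7-fold lower, FANCI, part of the complex that marks crosslinks, 7.46-fold, and the helicase BLM 6.87-fold. Base excision repair genes were lower in 8 of 18 and higher in 2, with a median of -0.56. The nuclease FEN1 (5.82-fold) and the glycosylase UNG, which removes uracil (4.82-fold), were lower, as was the glycosylase NEIL3 (4.14-fold), and the gap-filling polymerase POLB was 2.53-fold and the glycosylase TDG 1.67-fold higher. Nucleotide excision repair genes were lower in 2 of 16 and higher in 4, with a median of 0.12, shares near or below those of all measured genes. The TFIIH subunits GTF2H1 and GTF2H5 were 2.3-fold and 1.82-fold higher, and CETN2, a centrin, and GTF2H3 2.13-fold and 1.78-fold lower. End joining genes were lower in 2 of 9 and higher in 1, again near the shares of all measured genes, with a median of -0.34. PRKDC, the DNA-dependent protein kinase, was 3.84-fold and XRCC4 1.74-fold lower, and LIG4, the ligase that works with XRCC4, 2.25-fold higher. By its median the mismatch repair set lay between the nucleotide excision and the end joining lists. MSH6 at -1.57 was close to the recombination median of -1.69, which shifts with the filter. The lists differ in size and share no test, and nothing particular to a list is read from this order.

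**Figure D5:**
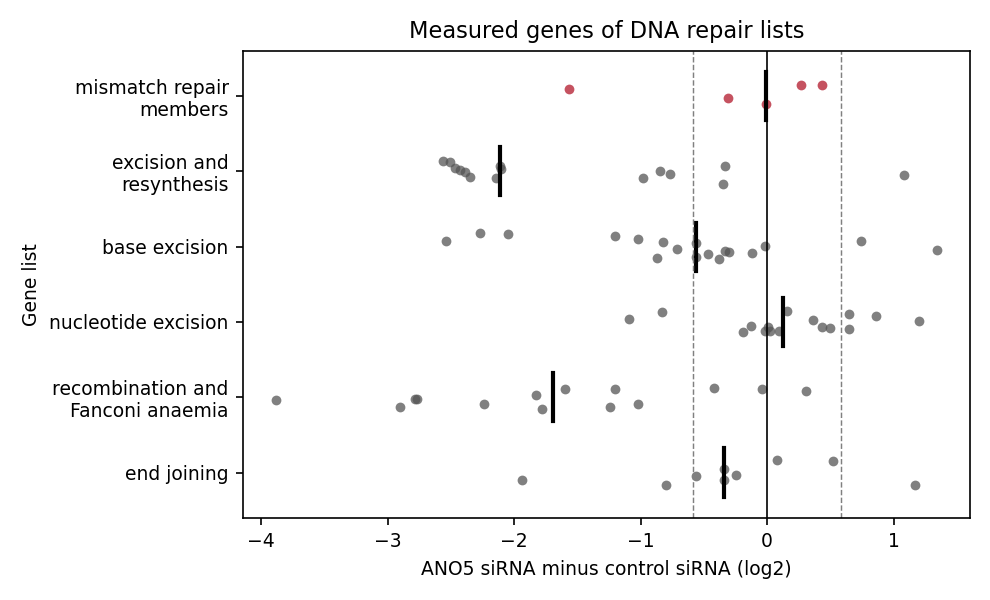
Log2 difference between the ANO5 siRNA and control siRNA arrays for each measured gene (points, spread vertically for legibility) of 6 DNA repair lists, with medians as black bars and 1.5-fold as dashed lines. The medians run from -2.11 for excision and resynthesis to 0.12 for nucleotide excision repair, and the members (red) have a median of -0.01 with MSH6 far to the left.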

How the data were processed

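Values were used as the authors deposited them, 1 per array for each of 17345 transcript clusters, and read as log2 signal because they run from 2.13 to 18.15. Agilent Feature Extraction 12.0.3.1 is named in the submitters' processing notes, although the identifiers of the clusters look like those of a different array maker. Background correction, normalization, log base and build were not given in the sources used here. No detection call was used. The array medians were 7.69 (control) and 7.68 (ANO5 siRNA).

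Gene symbols came from the platform's annotation: 14544 clusters had 1 symbol and 2801 had none. For the 16 genes with several clusters, the cluster of highest mean signal was kept; each member had 1 cluster. Genes were counted past 1.5-fold, 2-fold and 3-fold, without a test, and the counting was tested on simulated data. The members and lists were chosen with earlier results of these data known. Named genes were the members, ANO5, fixed pathway genes, head-to-head neighbours, up to 3 of the largest differences each way in each list and the 2 nearest genes of each member. PMS2P3, the genes of the excision list beyond this rule and the accessory genes were named after their values were seen. Alternatives were 4 scalings, a pseudocount of 32, 2 other filters, other folds, the mean and the median over clusters. The loess span was 0.4. The software was Python 3.11.15, numpy 2.4.6, pandas 2.3.3 and statsmodels 0.14.6.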

Additional observations from a re-analysis of the deposited data

How the results depend on the processing

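Alternatives gave 109 values, of which 106 kept their call at 1.5-fold, or, for counts of members, their value. The difference of MSH6 ran from -1.68 to -1.53, that of MSH3 from 0.18 to 0.28, PMS2 from 0.30 to 0.44, PMS1 from -0.37 to -0.28, and MutS minus MutL from -0.69 to -0.63. At a 3-fold threshold 0 members were lower, because MSH6 is at 2.97-fold. The recombination and Fanconi anaemia median kept its call but ran from -2.185 to -1.28, both with a changed filter on low values. The base excision repair median moved past 1.5-fold with loess (-0.62) and as a mean (-0.67); for loess the cause was not tested. Loess also moved the median of measured genes from 0.07 to -0.006 and gave 2188 lower and 1938 higher genes at 1.5-fold, beside 1961 and 2257. Some of the 109 values could not have differed. Each member and each gene of the repair lists has 1 cluster, so the median over clusters left their differences as they were. Scaling by the median or the 75th percentile shifts all genes alike and cancels in MutS minus MutL. A higher threshold cannot raise the count of members that were higher, which was 0. Without detection calls, folds that rest on low values may be too small. No paired analysis was possible because each group has 1 array.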

Other observations

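The E2F letters searched in the members' promoters were counted over the array, a choice made after the members' values were seen. Of the 9735 measured genes 8134 had a RefSeq promoter. Among the 461 whose promoter held the letters, 29.7% were lower by 1.5-fold or more and 15.6% were higher, with a median difference of -0.12. Among the 7673 without them, 19.6% were lower and 23.6% higher, with a median of 0.08. For the CCAAT box the shares lower were 23.1% of 3054 genes with it and 18.4% of 5080 without it, and for the GC box 20.5% of 5744 and 19.5% of 2390. For the cAMP response element they were 27.8% of 273 genes with it and 19.9% of 7861 without it, a gap close to that for the E2F letters. Its shares higher were 19.4% and 23.2%, and its medians 0.0 and 0.07, smaller gaps than those for the E2F letters. These are counts over genes on 1 pair of arrays, with no test, and base composition differs between promoters with and without each motif.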
